A study of Homo sapiens with 6 samples.

Results

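The integrated stress response and the unfolded protein response were followed through 40 genes in F36P cells, a human line established from an acute erythroid leukaemia. The genes were chosen by name, as the transcription factor ATF4 with its known targets and the main responders to unfolded protein in the endoplasmic reticulum (ER), and all 40 were among the 14821 genes of the table. Polyadenylated RNA was sequenced in 6 libraries of 2 groups. In the 3 ERG libraries the cells carried MSCV-PIG-AM-ERG, a retrovirus that expresses ERG, an ETS family transcription factor, and in the 3 vector libraries they carried MSCV-PIG without ERG, a genotype labelled WT. Cells of both groups had been kept in 1 µg/ml puromycin for 4 days, and each sample's RNA came from a like number of cells. The labels call the replicates biological and do not say whether they came from separate cultures or transductions, or whether the cells were pools or clones, so a p-value here measures only how far these samples spread, which may be technical. The submitters asked how ERG holds back erythroid differentiation; the question here is how far the stress genes moved with ERG and how they stood in each library.

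When a sensor kinase detects amino acid shortage, haem shortage, double-stranded RNA or unfolded protein in the ER, it phosphorylates the initiation factor eIF2, which slows most translation and favours that of ATF4. ATF4 then induces genes that make, import and charge amino acids, together with the factors DDIT3 (CHOP) and ATF3. Unfolded protein in the ER also activates the sensors ATF6 and IRE1, which induce chaperones such as HSPA5 and the factor XBP1. In erythroid cells the haem-sensing kinase EIF2AK1 is known for tying this response to haem supply.

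ERG stood at 97.4, 103 and 104 CPM (read counts scaled to the library total, with TMM normalisation) in ERG replicates 1, 2 and 3, against 28.1, 14.6 and 22.4 CPM in vector replicates 1, 2 and 3, so the labels held in every library. Totals lay between 10257141 and 14803031 counts. All 10 erythroid markers checked were present, among them GATA1 at 184 ± 17.6 CPM with ERG, against 223 ± 52.6 CPM with vector (SD, n = 3 each). KLF1, EPOR, HBG1 and HBG2 passed as lower with ERG (edgeR adjusted p = 0.0431, 0.0105, 0.0431 and 0.0317), HBG1 and HBG2 being near-identical copies. These calls, like all others over the table, were lost when vector replicate 2 or either of ERG replicates 1 and 2 was left out, and with ERG replicates 1 and 2 summed. Of 8 lymphoid and 8 monocyte or granulocyte markers, 2 and 3 had a tested row. ITGAM stood at 245 ± 56.9 CPM with ERG against 78.4 ± 43.3 CPM with vector, and LYZ at 78.2 ± 11.5 CPM with ERG against 137 ± 56.7 CPM with vector. CSF3R was at 119.6, 119 and 26.9 CPM with ERG against 53.1, 14.8 and 9.69 CPM with vector, and CD79A at 41, 39.3 and 22.3 CPM with ERG against 27.3, 11.8 and 11.6 CPM with vector. Both were thus high in ERG replicates 1 and 2 and vector replicate 1, as the stress genes were, and their part in the result was not tested. CD2 was low, at 1.07 ± 0.381 CPM with ERG against 0.903 ± 0.58 CPM with vector. The other lymphoid and monocyte or granulocyte markers had no row in the table of counts, so they could not be analysed. Of 8 stromal, epithelial and endothelial markers, 4 were tested, 2 with positive and 2 with negative log2 fold changes. Of these 4, 1 passed as higher with ERG (edgeR adjusted p = 0.0167), where 2.09% of all tested genes passed in either direction. ERG replicates 1 and 2 were close to each other, at a chi-square of 2.2 per degree of freedom over 14575 genes, where the other pairs of libraries lay between 21.6 and 86.9. That is above counting noise, so they were counted as 2 replicates, but it does not show separate cultures, which the labels do not state. With the pair summed as 1 sample, 0 genes were called.

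With ERG against vector, 0 of the 40 stress genes passed the test (edgeR quasi-likelihood, Benjamini-Hochberg adjusted p under 0.05), where 297 of 14203 tested genes passed (2.09%). The lowest adjusted p among the 40 was 0.324, of XBP1. An unadjusted edgeR p under 0.05 was found for 0 of the 40, and for 2237 of the 14203 tested genes. DESeq2 and limma voom also called 0 of the 40, where they called 1006 and 269 of all tested genes. Their unadjusted p was under 0.05 for 2 and 1 of the 40, and for 2463 and 2294 of all tested genes. DESeq2 gave no adjusted p for 4 of the 40. Of the log2 fold changes, 35 were positive and 5 negative, with a median of 0.38 beside -0.01 over all genes tested, and they ran from -0.51 for SDF2L1 to 1.28 for ATF3. The groups overlapped for all 40 genes, and did not overlap for 21.9% of the genes tested. In such bulk samples a change in how many cells use a gene and one in its RNA per cell cannot be told apart. The intervals were wide: that of PHGDH ran from -2.84 to 4.43 on the log2 scale (95%, from the SE with the 4 degrees of freedom between libraries), that of ATF4 from -0.83 to 1.26. Changes with ERG within these intervals were not detectable beside the spread between libraries of a group. Without vector replicate 1, 16 of 38 tested stress genes had an unadjusted edgeR p under 0.05, where 3247 of all 13939 tested genes did. Of the 38, 0 passed, where 435 of all tested genes did. The median log2 fold change of the stress genes was 1.17 without vector replicate 1. It lay between 0.11 and 0.78 without any other single library.

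**Figure D1:**
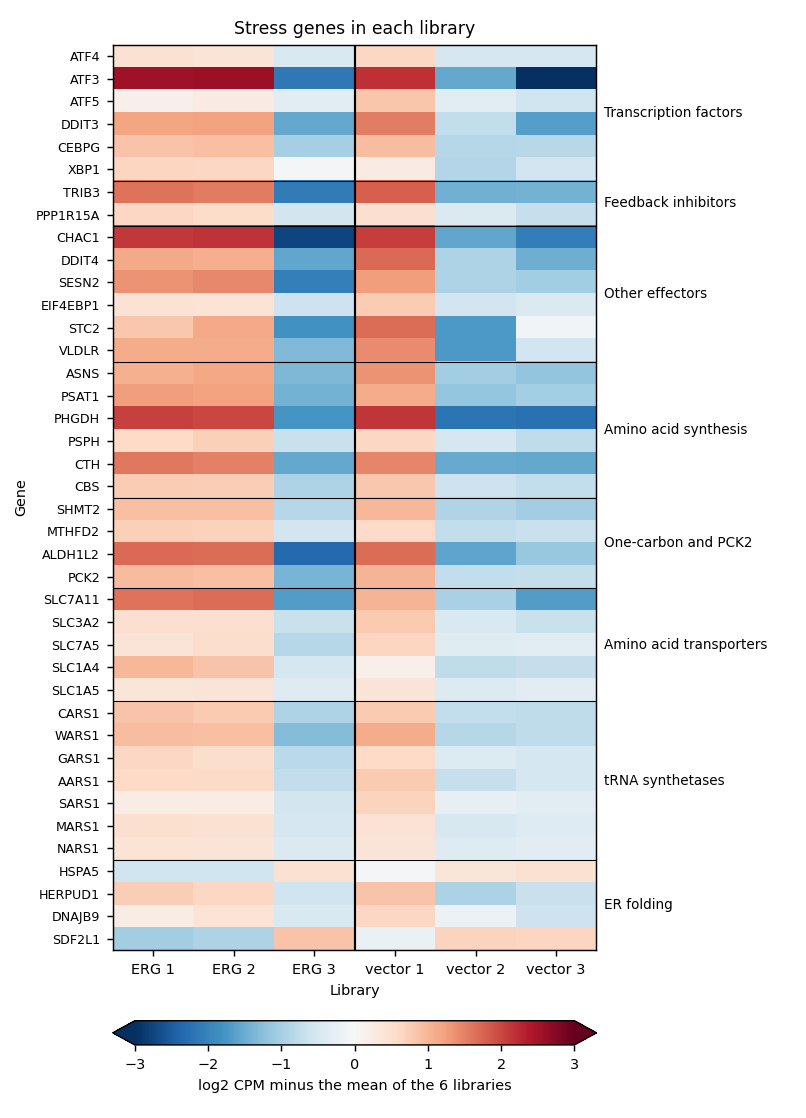
Heat map of the 40 stress genes (rows, grouped by role) in the 6 libraries (columns, ERG left and vector right). Colour shows log2 CPM (prior count of 2) minus the gene's mean over the 6 libraries, with values beyond the scale shown at its ends; 38 rows are higher in ERG 1, ERG 2 and vector 1 than in the other 3 libraries, and HSPA5 and SDF2L1 are lower there.

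The spread lay within the groups. For 38 of the 40 genes, ERG replicates 1 and 2 and vector replicate 1 all stood above ERG replicate 3 and vector replicates 2 and 3, an order found in 20.4% of all tested genes. For the other 2, HSPA5 and SDF2L1, these 3 libraries all stood below the other 3, an order found in 22.6% of all tested genes. Of the 38, ATF3 and ALDH1L2 reached 1 CPM in their 3 high libraries alone and were tested only through them, so their order lends no support. The 40 genes were proposed with it known that stress genes differ between libraries of a group, so these counts are a description. The median of the 40 genes stood at 0.79, 0.76 and -0.85 in ERG replicates 1, 2 and 3, and at 0.82, -0.74 and -0.70 in vector replicates 1, 2 and 3 (log2 CPM minus the gene's mean over the 6 libraries), where the median of all tested genes lay between 0.00 and 0.03. The SD of log2 CPM within the groups had a median of 0.886 over the stress genes and 0.281 over all tested genes. All 40 lay above this all-gene median, and 30 of them were in the top 10% of all genes. The 2 high ERG libraries are the pair that lay so close together.

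Among the transcription factors, ATF4 itself stood at 770.0, 743 and 406 CPM in ERG replicates 1, 2 and 3 and at 859.8, 396 and 394 CPM in vector replicates 1, 2 and 3. It was 1.9 times as high in ERG replicate 1 as in ERG replicate 3 and 2.17 times as high in vector replicate 1 as in vector replicate 2. Its mean was 639.6 ± 203 CPM with ERG and 550.0 ± 268 CPM with vector (SD, n = 3 each). The log2 fold change was 0.22, with an SE of 0.38 (edgeR adjusted p = 0.807). ATF4 occupies positions 39519695 to 39522685 of chromosome 22 (GENCODE release 29 on hg38), and its processed pseudogenes can draw on the same reads.

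DDIT3, the pro-apoptotic factor CHOP, was at 46.9, 47.9 and 7.06 CPM in ERG and 59.9, 12.4 and 6.46 CPM in vector replicates 1, 2 and 3. Its log2 fold change was 0.37 (SE 0.91, edgeR adjusted p = 0.867). ERG replicate 1 and vector replicate 1 thus stood 6.65 and 4.83 times above ERG replicate 3 and vector replicate 2. DDIT3 overlaps the tail of MARS1 on the opposite strand of chromosome 12 (57516588 to 57521737, against 57475445 to 57517569), and since it is not given whether counting used strand, reads there cannot be told apart. ATF3, an early stress factor, had 231, 266 and 8 counts in ERG and 160, 12 and 1 in vector replicates 1, 2 and 3. CEBPG, a dimer partner of ATF4, stood at 185, 189 and 50.6 CPM with ERG against 192, 56.1 and 57.3 CPM with vector. ATF5, which like ATF4 is translated when eIF2 is phosphorylated, differed least between ERG libraries, at 126, 135 and 89.3 CPM with ERG against 203, 91.5 and 75.4 CPM with vector. All 5 had the same 3 high libraries.

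Of the targets that act back on the response, TRIB3 varied more than PPP1R15A. TRIB3, a pseudokinase that restrains ATF4 and AKT, was at 329, 315 and 24.9 CPM in ERG replicates 1, 2 and 3 and at 369, 39.1 and 39.8 CPM in vector replicates 1, 2 and 3. It was 13.2 times as high in ERG replicate 1 as in ERG replicate 3, and 9.44 times as high in vector replicate 1 as in vector replicate 2. PPP1R15A (GADD34), the phosphatase subunit that restores eIF2, varied less, at 327, 314 and 144 CPM with ERG against 297, 158 and 132 CPM with vector. Their log2 fold changes with ERG were 0.58 (SE 1.1) and 0.42 (SE 0.40), with edgeR adjusted p of 0.823 and 0.642.

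CHAC1, which breaks down glutathione, had the widest range of the effectors. It stood at 67.8, 69.9 and 2.17 CPM in ERG replicates and 65.8, 5.18 and 3.52 CPM in vector replicates 1, 2 and 3. The differences within the groups were 31.2 times between ERG replicates 1 and 3 and 12.7 times between vector replicates 1 and 2, against a log2 fold change with ERG of 0.91 (SE 1.31, edgeR adjusted p = 0.766). DDIT4 (REDD1) and SESN2, which both restrain mTORC1, differed by 6.48 and 10.7 times between ERG replicates 1 and 3. Between vector replicates 1 and 2 they differed by 6.22 and 4.57 times. EIF4EBP1, a brake on cap-dependent translation, differed by 2.09 and 2.48 times in the same pairs, and VLDLR, a lipoprotein receptor, by 5.54 and 9.03 times. STC2, a secreted glycoprotein, was scarce, with 32, 46 and 4 counts with ERG against 53, 4 and 13 with vector.

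**Figure D2:**
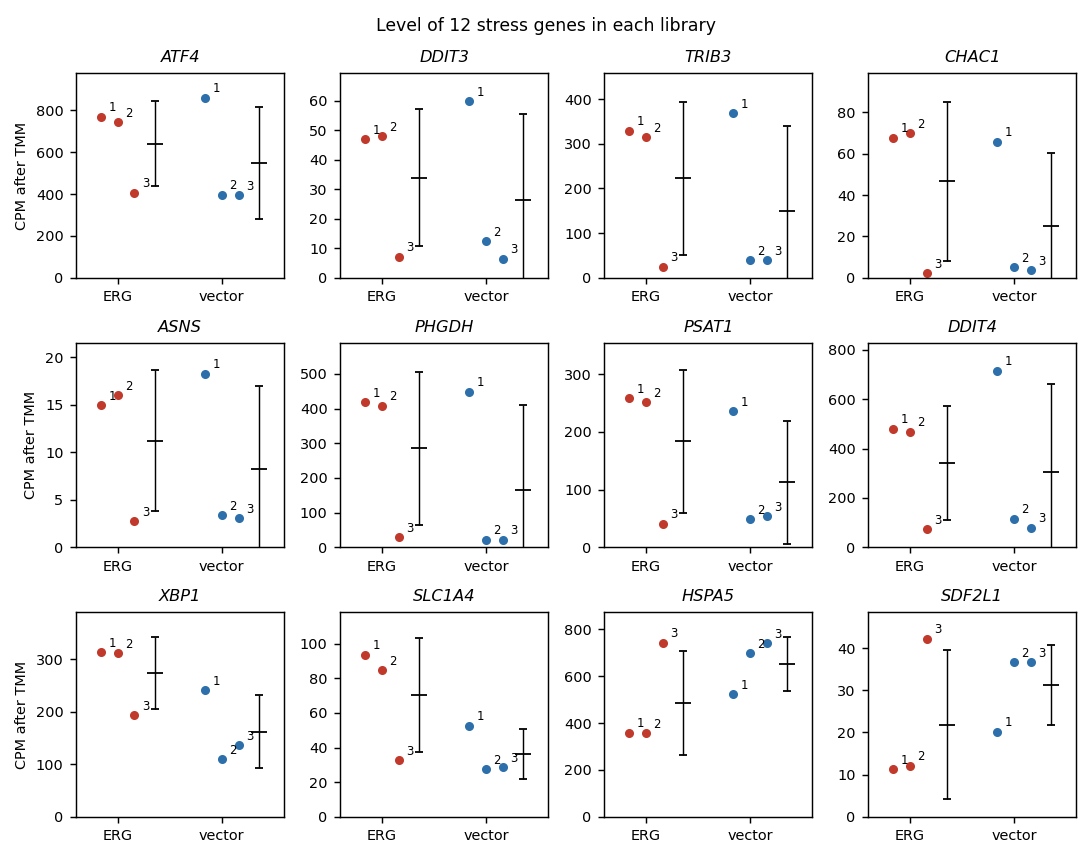
CPM after TMM normalisation of 12 stress genes in each library (numbered points) with the group mean and SD (n = 3, bars cut at 0), ERG left and vector right. In 10 panels replicates 1 and 2 of ERG and replicate 1 of vector lie above the others, and in those of HSPA5 and SDF2L1 below them.

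The enzymes that make serine from glucose varied together. PHGDH, the first of them, was at 418, 408 and 29.7 CPM in ERG and 448, 21.9 and 21.5 CPM in vector replicates 1, 2 and 3. Its differences of 14 times between ERG replicates 1 and 3 and 20.4 times between vector replicates 1 and 2 stand beside a log2 fold change with ERG of 0.80 (SE 1.31, edgeR adjusted p = 0.796). PSAT1, the next enzyme, stood at 258, 252 and 40.7 CPM with ERG against 236, 48.2 and 53.4 CPM with vector (log2 fold change 0.71, SE 0.81, edgeR adjusted p = 0.706). PSPH, the last, differed less, at 49.1, 53.3 and 20.4 CPM with ERG against 50, 22.8 and 19.1 CPM with vector. ASNS, the asparagine synthetase, was at 15, 16 and 2.72 CPM with ERG against 18.3, 3.35 and 3.03 CPM with vector (log2 fold change 0.45, SE 0.84, edgeR adjusted p = 0.821). CTH and CBS, which make cysteine from homocysteine, differed by 8.69 and 3.24 times between ERG replicates 1 and 3 and by 7.97 and 2.68 times between vector replicates 1 and 2. CBS has a near-identical copy in hg38, so its counts are uncertain.

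Mitochondrial one-carbon enzymes and PCK2 followed the same libraries. SHMT2, which splits serine, stood at 644, 653 and 192 CPM in ERG and 693, 185 and 168 CPM in vector replicates 1, 2 and 3. MTHFD2, which oxidises the folate-bound carbon unit, was at 722, 712 and 299 CPM with ERG against 658, 266 and 279 CPM with vector. PCK2, the mitochondrial PEP carboxykinase, differed by 5.09 times between ERG replicates 1 and 3 and by 3.36 times between vector replicates 1 and 2. ALDH1L2, the mitochondrial formyl-tetrahydrofolate dehydrogenase, had 103, 115 and 5 counts with ERG against 89, 9 and 10 with vector. None of the 4 passed with ERG against vector, with edgeR adjusted p between 0.611 and 0.815.

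Of the amino acid carriers, SLC7A11, the cystine importer, ranged most, at 188, 193 and 18.9 CPM in ERG and 122, 30.7 and 18.8 CPM in vector replicates 1, 2 and 3. Its partner chain SLC3A2 was at 318, 316 and 139.9 CPM with ERG against 388, 163 and 141 CPM with vector, and SLC7A5, the leucine carrier with the same partner, at 508, 555 and 215 CPM with ERG against 602, 299.8 and 309.9 CPM with vector. SLC1A5, the glutamine carrier, varied least of all 40 genes (SD of log2 CPM within groups 0.439) and still had the same 3 libraries above the rest. Per length it was also the most abundant, at 317 CPM per kilobase of exon in ERG and 267 in vector libraries, ahead of EIF4EBP1 (281 with ERG and 261 with vector) and ATF4 (254 with ERG and 219 with vector). STC2 was the scarcest per kilobase (0.323 with ERG and 0.339 with vector), with ALDH1L2 next (0.638 with ERG and 0.373 with vector).

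The 7 tRNA synthetases were higher in the same 3 libraries, by smaller factors. WARS1, the tryptophan enzyme, ranged most, at 1167, 1139 and 249 CPM in ERG and 1316, 335 and 358 CPM in vector replicates 1, 2 and 3. CARS1, GARS1, AARS1, SARS1, MARS1 and NARS1 differed by between 1.7 and 3.44 times between ERG replicates 1 and 3, and by between 1.72 and 2.89 times between vector replicates 1 and 2. These are the enzymes of cysteine, glycine, alanine, serine, methionine and asparagine.

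The 4 ER folding genes split. HSPA5 (BiP), the main ER chaperone, was at 359, 357 and 743 CPM in ERG and 523, 697 and 739.6 CPM in vector replicates 1, 2 and 3, so that the libraries high in the ATF4 targets were low in it. Its means were 486 ± 222 CPM with ERG and 653 ± 115 CPM with vector (SD, n = 3 each), at a log2 fold change of -0.43 with an SE of 0.32 (edgeR adjusted p = 0.558). SDF2L1, a cofactor of BiP, went the same way, at 11.3, 12.1 and 42.2 CPM with ERG against 20.2, 36.7 and 36.6 CPM with vector. HERPUD1, of ER-associated degradation, stood at 76.3, 70.5 and 30.6 CPM with ERG against 83.1, 23.7 and 29 CPM with vector. DNAJB9, another BiP cofactor, was at 15.2, 17.2 and 9.37 CPM with ERG against 20.1, 11.5 and 8.41 CPM with vector. HERPUD1 and DNAJB9 were thus high where the ATF4 targets were high, and XBP1, described with the library sets, was too.

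**Figure D3:**
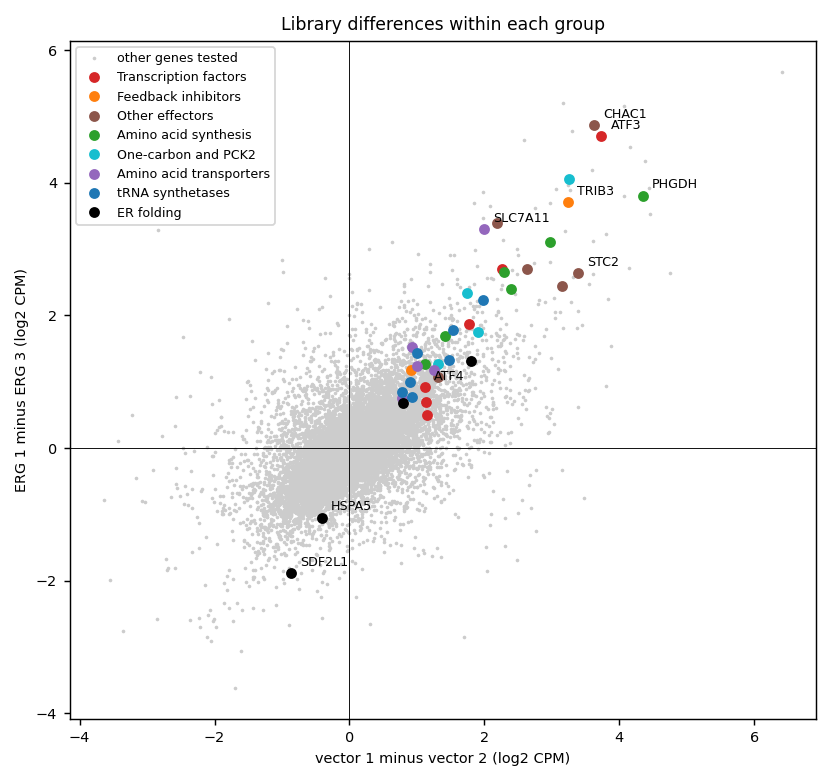
Difference in log2 CPM (prior count of 2) between ERG replicates 1 and 3 (vertical) and between vector replicates 1 and 2 (horizontal) for each tested gene, with the 40 stress genes in colour by role. The pairs share no library; 38 stress genes lie above 0 on both axes, with CHAC1, ATF3 and PHGDH farthest out, and HSPA5 and SDF2L1 lie below 0 on both.

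Genes with a larger difference in one group tended to have a larger one in the other. The size of single genes still varied. CHAC1 differed by 31.2 times between ERG replicates 1 and 3 and by 12.7 times between vector replicates 1 and 2. PHGDH differed by 14 and 20.4 times in the same pairs. Across the 40 genes, the log2 difference between ERG replicates 1 and 3 and that between vector replicates 1 and 2 had a Pearson r of 0.93, against 0.62 across all tested genes. These pairs share no library and were chosen after the values were seen, and genes are not independent replicates, so the r is a description. The median difference of the 40 genes was 1.61 between these ERG libraries and 1.5 between these vector libraries on the log2 scale.

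Promoters were read for the motifs through which ATF4, ATF6 and XBP1 are known to act. RefSeq windows (GRCh38.p14) from 250 bases before to 50 after a start were at hand for 35 of the 40 genes in 56 windows, and not for EIF4EBP1, PSPH, SHMT2, ALDH1L2 and SLC7A11. The core of the C/EBP-ATF element, TGATGNAA on either strand, was in a window of 13 of the 35 genes (37.1%), against 4.46% of 27305 genes with a window. Counted by window, it was in 23.2% of those of the stress genes and 3.62% of all 35116. The 13 were AARS1, ASNS, ATF3, CARS1, CEBPG, CHAC1, GARS1, HERPUD1, MARS1, NARS1, SLC1A4, SLC1A5 and SLC3A2, and each of them was higher in ERG replicates 1 and 2 and vector replicate 1, as 38 of all 40 were. The ER stress element, likewise searched on both strands, was in HSPA5 and XBP1 (0.0916% of all genes), and the ER stress element II in HERPUD1 and SDF2L1 (0.0696%). The UPR element TGACGTGG was in 1 of the 35, CARS1, and in 0.927% of all genes. The matches to different motifs in the HERPUD1 window did not overlap. The stress genes include textbook examples of these elements, and a match describes the letters and not a bound site.

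Shown here are genes with the C/EBP-ATF core alone (AARS1 and ATF3), with that core and an ER stress element (HERPUD1), and with an ER stress element alone (XBP1, HSPA5 and SDF2L1). Each stretch runs 5′ to 3′ on the gene's own strand from 250 bases before the RefSeq start to the RefSeq start, or to the last base before a GENCODE exon of the gene where that comes first. Capitals mark the motifs. The stretches are chr16:70289544-70289756 (minus strand), chr1:212565157-212565333 (plus), chr16:56931892-56932047 (plus), chr22:28800598-28800819 (minus), chr9:125241344-125241593 (minus) and chr22:21642052-21642260 (plus).
AARS1: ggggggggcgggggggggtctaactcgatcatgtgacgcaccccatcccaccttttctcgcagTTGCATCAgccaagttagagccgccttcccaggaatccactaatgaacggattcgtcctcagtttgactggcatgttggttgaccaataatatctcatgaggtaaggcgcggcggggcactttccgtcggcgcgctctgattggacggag
ATF3: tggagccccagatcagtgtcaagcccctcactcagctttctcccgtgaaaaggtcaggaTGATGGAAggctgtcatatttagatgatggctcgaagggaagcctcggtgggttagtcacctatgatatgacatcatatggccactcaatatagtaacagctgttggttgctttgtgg
HERPUD1: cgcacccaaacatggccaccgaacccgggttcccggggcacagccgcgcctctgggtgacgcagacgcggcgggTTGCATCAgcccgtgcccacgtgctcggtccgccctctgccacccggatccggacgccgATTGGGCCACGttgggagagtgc
XBP1: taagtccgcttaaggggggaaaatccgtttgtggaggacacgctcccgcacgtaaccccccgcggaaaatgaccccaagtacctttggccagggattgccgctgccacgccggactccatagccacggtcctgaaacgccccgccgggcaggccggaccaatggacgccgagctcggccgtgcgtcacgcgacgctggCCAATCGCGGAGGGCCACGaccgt
HSPA5: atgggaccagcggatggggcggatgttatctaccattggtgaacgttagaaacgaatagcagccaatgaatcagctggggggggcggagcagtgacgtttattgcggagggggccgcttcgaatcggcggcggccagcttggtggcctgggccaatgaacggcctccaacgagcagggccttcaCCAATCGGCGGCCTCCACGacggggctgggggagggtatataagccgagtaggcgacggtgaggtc
SDF2L1: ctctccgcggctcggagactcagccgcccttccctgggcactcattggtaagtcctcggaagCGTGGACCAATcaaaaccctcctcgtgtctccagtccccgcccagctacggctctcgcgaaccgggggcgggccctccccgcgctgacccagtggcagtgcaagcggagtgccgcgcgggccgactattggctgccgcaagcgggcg
HERPUD1, with both kinds of element, went with the ATF4 targets across the libraries. Of the genes with an ER stress element alone, HSPA5 and SDF2L1 went the other way and XBP1 did not. The high order was that of 38 of the 40 genes, with and without these motifs, and a link between motif and order was not tested.

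A term for the library pattern raised the number of calls, from 0 of the 40 stress genes and 297 of all tested genes without it. With ERG replicates 1 and 2 and vector replicate 1 as one set and the other libraries as the other, 5 of the 40 genes passed, 2 higher and 3 lower, where 1877 of all tested genes did (13.2%). The share of 5 in 40 is near that background. The sets were drawn from these libraries, by correlations across genes, so p-values with the term may be too low. With all listed genes left out, vector replicate 1 was at r = 0.966 with ERG replicate 1 and 0.958 with vector replicate 2. The gaps were smaller for ERG replicates 1 and 2. They were at r = 0.966 and 0.965 with vector replicate 1, against 0.964 each with ERG replicate 3. With the term 10 of the 40 log2 fold changes were positive, and their median was -0.17, beside 0.00 over all genes.

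XBP1, the factor whose mRNA IRE1 splices, was at 314, 312 and 194 CPM in ERG and 241, 109.8 and 136 CPM in vector replicates 1, 2 and 3. Its means were 273 ± 69.0 CPM with ERG and 162 ± 69.8 CPM with vector (SD, n = 3 each), at a log2 fold change of 0.75 with an SE of 0.33 (edgeR adjusted p = 0.324). With the set term it was higher with ERG (log2 0.52, SE 0.11, edgeR adjusted p = 0.0111), also with ERG replicates 1 and 2 summed (0.54, adjusted p = 0.029). The log2 difference of ERG over vector was 0.37 within the set that holds vector replicate 1 and 0.67 within the other. A table of counts per gene does not show splicing.

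SLC1A4, a carrier of alanine and serine, was at 93.7, 84.7 and 32.6 CPM in ERG and 52.6, 27.5 and 28.6 CPM in vector replicates 1, 2 and 3 (log2 fold change 0.96, SE 0.42, edgeR adjusted p = 0.331). With the set term it was higher (log2 0.50, adjusted p = 0.0342), but not with ERG replicates 1 and 2 summed (0.47, adjusted p = 0.101). TRIB3, DDIT4 and SARS1 were lower with the set term, at log2 -0.40, -0.50 and -0.36 (edgeR adjusted p = 0.043, 0.0347 and 0.0201). DDIT4 stood at 480.2, 468 and 74.1 CPM in ERG and 715, 115 and 79.7 CPM in vector replicates 1, 2 and 3, and SARS1 at 231, 231 and 136 CPM with ERG against 317, 166 and 160.5 CPM with vector. Without the term, DDIT4 had a log2 fold change of 0.17 (SE 0.94, edgeR adjusted p = 0.944) and SARS1 of -0.11 (SE 0.32, adjusted p = 0.892). With ERG replicates 1 and 2 summed, none of these 3 passed with the set term (adjusted p = 0.09, 0.113 and 0.116).

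**Figure D4:**
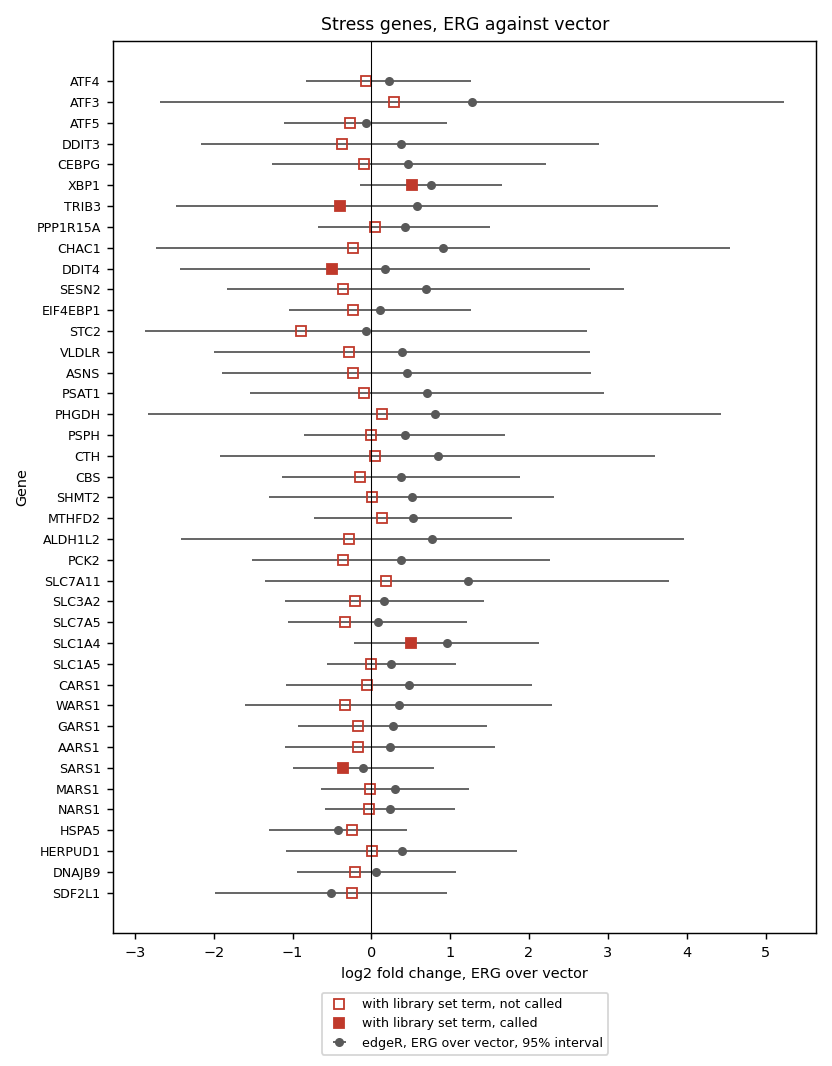
Log2 fold change of the 40 stress genes, ERG over vector: edgeR estimates with 95% intervals (grey points and bars) and estimates with the library set term (red squares, filled where the adjusted p is under 0.05). All grey intervals include 0; the filled squares are XBP1 and SLC1A4 above 0 and TRIB3, DDIT4 and SARS1 below it.

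Other genes of these responses were followed in lists of their own. With ERG against vector 297 of all 14203 tested genes passed (2.09%), so few calls were to be looked for in short lists. Of the 142 genes of 7 such lists in the table, 1 passed. It was SRXN1, a target of the oxidative stress factor NRF2, which was lower (49.6 ± 4.08 CPM with ERG against 85.2 ± 4.86 CPM with vector, SD, n = 3 each; log2 -0.78, SE 0.13, edgeR adjusted p = 0.0304). The call was lost without ERG replicate 1 or 2 or vector replicate 2 or 3 (edgeR adjusted p = 0.216, 0.216, 0.121 and 0.107), with log2 fold changes between -0.78 and -0.72. Of 29 other tested genes listed as ATF4 targets, 21 had ERG replicates 1 and 2 and vector replicate 1 above the rest and 3 below. Over all tested genes 20.4% were above and 22.6% below. None of the 29 passed with ERG. The 2 with the highest CPM were BCAT1 (387 ± 47.8 CPM with ERG against 245 ± 50.2 CPM with vector) and the ribosomal protein gene RPL41 (353 ± 22.9 CPM with ERG against 419 ± 77.8 CPM with vector). Whether RPL41 is an ATF4 target was not tested. With the set term 13.2% of all tested genes passed, and of the 29 genes 4 passed as higher and 5 as lower. BCAT1 was one of the 4 (log2 0.54, edgeR adjusted p = 0.00826), and it also passed with DESeq2 (adjusted p = 0.0386), against an edgeR adjusted p of 0.148 without the term.

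The sensors, eIF2 kinases and their partners went both ways across the libraries. Of 22 such genes 10 had the 3 libraries above the rest, 6 below and 6 neither order, so their median lay between -0.09 and 0.08 in the 6 libraries. None passed with ERG, and EIF2S3 had a log2 fold change of 0.08 and GCN1 of -0.40 (edgeR adjusted p = 0.835 and 0.519). The 29 other ER chaperone and degradation genes, with CALR (log2 -0.39) and P4HB (-0.44) the highest in CPM, had 8 with the 3 libraries above the rest, 3 below and 18 with neither order. The 16 tRNA synthetase genes outside the 40 had 5 above and 6 below, with EPRS1 at a log2 fold change of 0.10 and FARSA at -0.39. Among 11 mitochondrial chaperones and proteases, HSPD1 (log2 -0.52) and LONP1 (-0.05) were the highest in CPM, and 1 of the 11 was above and 5 below. Beside each of these counts, 20.4% of all tested genes had the 3 libraries above the rest, 22.6% had them below, and 2.09% passed with ERG.

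Cytosolic heat shock genes ran opposite to the ATF4 targets. ERG replicates 1 and 2 and vector replicate 1 were all below the rest in 22.6% of all tested genes and all above in 20.4%. Of the 19 heat shock genes tested, 15 were below and 0 above. Their median stood at -0.69, -0.76 and 0.61 in ERG replicates 1, 2 and 3 and at -0.44, 0.55 and 0.83 in vector replicates 1, 2 and 3. HSP90AA1 was at 758, 738 and 2996 CPM in ERG and 829, 2758 and 3305 CPM in vector replicates 1, 2 and 3 (log2 -0.62, edgeR adjusted p = 0.696). HSP90AB1 was at 1180.4, 1185 and 2913 CPM with ERG against 1187, 2479.6 and 2959.7 CPM with vector (log2 -0.33, adjusted p = 0.757). What set these libraries apart was not tested.

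**Figure D5:**
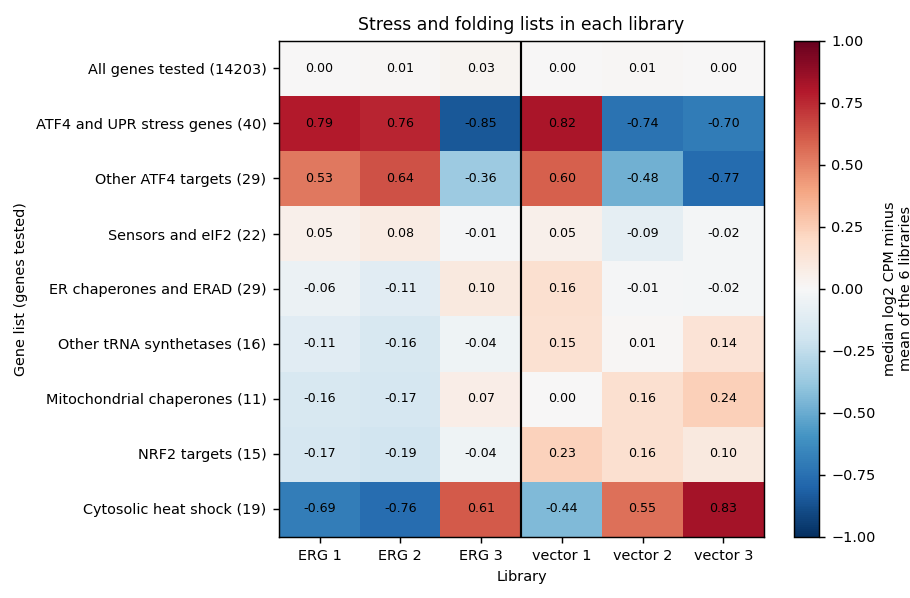
Median over the tested genes of each list (number in brackets) of log2 CPM minus the gene's mean over the 6 libraries, ERG left and vector right. The 40 stress genes and the other ATF4 targets are above 0 in ERG 1, ERG 2 and vector 1, the cytosolic heat shock genes are below 0 there, and the remaining lists stay between -0.19 and 0.24.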

How the data were processed

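RNA was measured in 6 libraries of F36P cells, 3 per group. Per the submitters' processing notes reads were placed on hg38 and edgeR 3.32.1 was run; aligner, counting tool, strand and annotation are not given in the sources used here. The authors deposited whole-number read counts per gene, though the table is named for CPM (0 columns unused; second-highest CPM of every gene at least 1.01, so low genes had been removed). Control columns were assigned to vector as the only group besides ERG.

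Genes reaching 1 CPM in 3 or more libraries were tested (14203, leaving out 618) with edgeR 4.0.16 in R 4.3.3, TMM normalisation and its robust two-sided quasi-likelihood test, adjusted over all of them. All 40 stress genes passed this filter, ATF3 and ALDH1L2 through 3 libraries alone, ERG replicates 1 and 2 and vector replicate 1, where they were high. Both remain in the counts, medians and correlation given for the 40 genes. SE is the log2 fold change over the square root of F. The script was run on simulated counts with the same dispersion for all genes and no library pattern. That checks the code and does not show how the test performs on these libraries. DESeq2 1.42.0, limma 3.58.1 voom, other filters and scalings, a set term, a replicate block and left-out libraries were tried. Same-numbered replicates deviated together at r = 0.63, -0.28 and 0.59, so numbers were not taken as pairs.

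Stress genes, lists, library sets and alternatives were chosen with earlier results of these data known. Values in every library are given for genes past the threshold, with or without the set term, and for 9 fixed genes; each other list gives up to 4 genes that passed or the 2 highest in CPM. Further genes were chosen after their values were seen. Lengths are summed exons of GENCODE release 29.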

Additional observations from a re-analysis of the deposited data

How the results depend on the processing

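Among the 40 stress genes 0 passed with ERG against vector in every setting without the set term. With the term 2 passed as higher and 3 as lower, and with ERG replicates 1 and 2 also summed 1 passed as higher and 0 as lower. Over all genes, 198 higher and 99 lower calls became 596 and 410 with DESeq2, 1034 and 843 with the set term, 0 and 0 with ERG replicates 1 and 2 summed, and 548 and 412 with both. With 1 library left out they ranged from 0 to 307 higher and 0 to 128 lower, with 0 calls once vector replicate 2 or either of the close ERG replicates 1 and 2 was left out. Replicate numbers were not shown to pair the samples; with them as a replicate block, 626 higher and 353 lower genes and 0 stress genes were called. The 1 call among the 142 genes of the other 7 lists became 8 with DESeq2, 21 with the set term, 0 with the summed replicates, 5 with both and 8 with the block, and ranged from 0 to 3 with 1 library left out. Calls over all genes moved alongside, from 297 of 14203 (2.09%) to 1006 with DESeq2, 1877 with the set term (13.2%), 0 with the summed replicates, 960 with both and 979 with the block. The list counts thus say little about the lists themselves.

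Some changes that were uncalled without the set term turned sign with it, without and with summed replicates. These were ASNS (-0.24 and -0.23), ATF4 (-0.07 and -0.05), CHAC1 (-0.23 and -0.33), DDIT3 (-0.38 and -0.38), DDIT4 (-0.50 and -0.48), EPRS1 (-0.06 and -0.07), HSP90AB1 (0.05 and 0.06), PSAT1 (-0.09 and -0.12) and TRIB3 (-0.40 and -0.43). EIF2S3 turned with the set term without summing (-0.01). DDIT4 and TRIB3 were called as lower with the set term, but not with summed replicates as well. DDIT4 was at -0.14 with summed replicates, and LONP1 at 0.04 with limma voom and 0.03 with the block. With 1 library left out, DDIT3 ranged from -0.09 to 1.84, DDIT4 ranged from -0.28 to 1.81, EIF2S3 ranged from -0.01 to 0.25, LONP1 ranged from -0.34 to 0.52 and SARS1 ranged from -0.28 to 0.29. The cause was not tested.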

Other observations

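Genes outside the 40, chosen here after their values were seen, followed the same libraries. NUPR1, a small stress-induced nuclear protein, was at 14.8, 19.3 and 0.136 CPM in ERG replicates 1, 2 and 3 and at 71.8, 0.685 and 2.25 CPM in vector replicates 1, 2 and 3. CEBPB, a C/EBP factor that ATF4 induces, stood at 74.1, 68.5 and 19.6 CPM with ERG against 83.9, 20.7 and 20.4 CPM with vector. BBC3 (PUMA), a killer protein of the BCL2 family, was at 96.9, 99.4 and 21.3 CPM with ERG against 102, 26.0 and 22.4 CPM with vector. None of the 3 passed with ERG against vector (edgeR adjusted p = 0.764, 0.812 and 0.75). With the library set term NUPR1 passed as lower (log2 -2.16, edgeR adjusted p = 0.00179), and CEBPB and BBC3 did not (adjusted p = 0.336 and 0.498). The NUPR1 value of ERG replicate 3 rests on 2 counts. HSPA8, the constitutive cytosolic chaperone, went the opposite way, at 429, 416 and 2156 CPM with ERG against 572, 2069 and 2467 CPM with vector.

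EDEM1, an ER degradation factor, was higher in each ERG library than in each vector library, at 177, 179 and 132 CPM with ERG against 98.6, 66.0 and 59.8 CPM with vector. It just missed the threshold (log2 fold change 1.12, SE 0.23, edgeR adjusted p = 0.0565) and, given the library set term, passed at a log2 fold change of 0.96 (edgeR adjusted p = 0.000159). EDEM1 was picked after its values were seen, from the 29 tested ER chaperone and degradation genes. Of these 29, 11 had positive and 18 negative log2 fold changes, with a median of -0.04. The groups did not overlap for 6 of the 29, and for 21.9% of all tested genes.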
